A study of Macaca fascicularis with 1154 samples.

Results

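Cells of cultured embryos of the cynomolgus monkey, Macaca fascicularis, are compared here between day 17 and day 15 of the series. Cells were taken where the sample title began with E15 or E17 and the cell held at least 100000 counts and at least 2000 detected gene IDs. This gave 260 cells of the 1154 samples of the series, of which 121 belonged to day 15 and 139 to day 17. The series cultured embryos outside the uterus to look at how embryonic and extraembryonic lineages are specified, and each sample was 1 cell read by SMART-seq2, a full-length RNA sequencing method for single cells. Both groups had the tissue label embryo, and the labels gave no genotype, treatment, sex or cell type that set them apart. Embryos had been digested with trypsin, and single cells had been picked by mouth pipette into lysis medium, per the labels' protocols.

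A collection is the cells with the same day and B number in their titles. The collections of day 15 were E15 B1 with 87 cells, E15 B2 with 22 and E15 B3 with 12. Those of day 17 were E17 B1 with 37 cells, E17 B4 with 31 and E17 B5 with 71. What the B number stood for was not given, so the p-values below cover the spread among these 6 collections alone, and that spread may be technical. The titles of E17 B1 were also written differently from the others, with the letter p and dots, and results are given with and without it. Of the 473 samples of these days, 212 were not analysed here for lack of a column of counts, and 1 cell fell below the minimums.

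In primate embryos this period follows implantation. The epiblast, which forms the body, lies between the amnion and the endoderm, and gastrulation turns it into the germ layers while trophoblast and extraembryonic mesenchyme grow around it. A collection of a few cells can therefore hold very different mixtures of these lineages from its neighbour. Genes of the table carry Ensembl-type IDs without names, and 0 of the 28592 IDs were found in the gene table at hand. Lineage markers could not be looked up, the label embryo could not be checked against markers, and the roles of the IDs below are not stated. In collections summed over cells, more cells with an ID and more RNA of it per cell cannot be told apart, which is why the percent of positive cells is given beside each level.

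The collections differed strongly in depth and complexity within each day. Their sums ran from 23172472 counts in E15 B3 to 252729521 in E15 B1, and single cells from 107155 to 18828693 counts. At a depth of 100000 counts the median cell showed 5432 IDs in E15 B1, 2545 in E15 B2 and 2086.5 in E15 B3, against 4885 in E17 B1, 3039 in E17 B4 and 4841 in E17 B5. The days overlapped, and the day means of 3354.5 ± 1813.7 and 4255 ± 1053.3 IDs (SD, n = 3) did not differ beyond that spread (two-sided exact permutation test, p = 0.6, where 3 against 3 collections cannot go below 0.1). The most abundant ID, ENSMFAG00000000004, took a median of 3.01%, 13.7% and 11.9% of the counts of a cell in E15 B1, B2 and B3. In E17 B1, B4 and B5 it took 1.52%, 2.09% and 3.21%. Its day means were 9.53% ± 5.71 and 2.27% ± 0.859 (SD, n = 3), with the day 15 mean carried by E15 B2 and B3 and E15 B1 below E17 B5 (two-sided exact permutation test, p = 0.2; 0.6 after adjustment over the 4 measures of this kind).

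Between day 15 and day 17 no ID changed in its summed level by the test used, and the percent of positive cells rose for 4 IDs and fell for none. These calls depended on the collections: 1 ID was called without E17 B1 and 0 without E17 B5. The IDs that differed most were nearly absent from all 3 day 15 collections and reached far higher levels in all 3 day 17 collections. Each was at a high level in a minority of cells. Levels of collections are in CPM, counts scaled to the total with edgeR's TMM factor for differences in composition. Levels without the cell with the most counts, and levels of single cells, are scaled to plain totals. A smaller number of IDs were lower at day 17, by smaller folds. Differences between the collections of a day were as large as those between the days for most other IDs.

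Summed levels were compared over 13736 IDs with edgeR's quasi-likelihood test, and 0 passed an adjusted p of 0.05 (0%), the smallest adjusted p being 0.307. At an unadjusted p under 0.05 there were 327 IDs, 193 higher and 134 lower at day 17, fewer than the 686.8 that a threshold of 0.05 would give with no difference. Without E17 B1 edgeR called 0 of 15150 IDs (0%), with 253 at an unadjusted p under 0.05 and a smallest adjusted p of 0.0581. Other tools did make calls: DESeq2 called 65 IDs, 50 higher and 15 lower, and limma on the mean log2(CPM + 1) of the cells called 1, which was ENSMFAG00000037707. The median absolute difference between the day means was 0.58 on the log2(CPM + 1) scale, while the median SD of the collections of a day was 1.00 (0.99 at day 15 and 0.76 at day 17). The day difference exceeded that SD for 3836 IDs, 27.9% of those tested.

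Counts of IDs whose collections did not overlap are given next, and they carry no test. Random order alone would put 3 collections above 3 others at a share of 0.05, or 686.8 of the IDs tested, in each direction. All 3 day 17 collections were above all 3 day 15 collections for 799 IDs (5.82% of those tested) and below them for 473 (3.44%). With a fitted difference of at least 3 log2 units as well, 273 IDs were higher (1.99%) and 71 lower (0.517%). With at least 5 log2 units, 106 were higher (0.772%) and 21 lower (0.153%). IDs with less than 1 CPM in every day 15 collection and at least 10 CPM in every day 17 collection numbered 8 (0.0582%), against 1 for the reverse (0.00728%). Higher IDs thus outnumbered lower ones most where the differences were largest. Of the 106, 20 and 19 IDs had any count in E15 B2 and E15 B3, small collections in cells and counts. Over all 13736 IDs tested, 11019 and 10376 had any count there. A level near 0 makes a fold large, and the part of this in the excess was not tested. With cells thinned to 100000 counts each, the 3 log2 counts were 128 higher and 49 lower. With cells of at least 4000 detected IDs they were 308 and 29. The excess depended on the collections: the counts were 1512 and 106 without E15 B1, 420 and 336 without E15 B2, 338 and 199 without E15 B3, 437 and 134 without E17 B1, 517 and 104 without E17 B4, and 347 and 187 without E17 B5. With a collection left out, full separation comes more easily and the IDs tested change, so the sizes of these counts cannot be set against the main ones.

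The larger differences lay in few cells. Among the 106 IDs higher by at least 5 log2 units, the cell with the most counts of an ID held a median of 61.2% of its counts in E17 B1, 76.9% in E17 B4 and 40.7% in E17 B5. Over all IDs tested the same medians were 24.7%, 48.2% and 15.7%, at a median level of 12.1, 11.2 and 11.9 CPM against 3.89, 8.31 and 2.67 CPM for the 106. In the same 106 IDs the median percent of cells at 100 CPM or more was 2.70% in E17 B1, 3.23% in E17 B4 and 0.704% in E17 B5.

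Of the IDs named by rule for their summed level, ENSMFAG00000041983 had the smallest p. It had 2, 0 and 2 counts in E15 B1, B2 and B3, which is at or below 3 counts in each, the floor used here for a level that can be told from 0. In E17 B1, B4 and B5 it had 851, 135545 and 32613 counts, or 23.7, 717 and 243 CPM. In E17 B4, 63.9% of the counts came from 1 cell, and the level without it was 248 CPM. The groups did not overlap, and the day 17 collections differed among themselves by more than an order of magnitude. The fitted log2 difference was 13.99 ± 1.85 (SE), which rests on 4 counts at day 15 and depends on the prior count, and the adjusted p was 0.307 with edgeR. It was called by DESeq2 (adjusted p = 1.1e-17) and by edgeR with no filter (adjusted p = 0.00187), and in no other of its 14 alternatives. Cells at 100 CPM or more numbered 4 of 37 in E17 B1, 6 of 31 in E17 B4, 17 of 71 in E17 B5 and 0 in each day 15 collection. For the 87 cells of E15 B1, a count of 0 allows a share of up to 3.45%, and for the 22 of E15 B2 and the 12 of E15 B3 up to 13.6% and 25%, counting error only.

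ENSMFAG00000042181 showed the same shape at a similar level. Its CPM was 0.628, 0 and 0.197 in E15 B1, B2 and B3, and 86.0, 298 and 301 in E17 B1, B4 and B5. In E15 B1, 98.1% of its 159 counts came from 1 cell. The log2 difference was 9.54 ± 1.36 (SE, adjusted p = 0.307 with edgeR), and it was called by DESeq2 (adjusted p = 6.0e-16) and by edgeR with no filter (0.00495) or with thinned cells (0.0223). No day 15 cell reached 100 CPM, against 5, 9 and 21 cells of the day 17 collections.

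**Figure D1:**
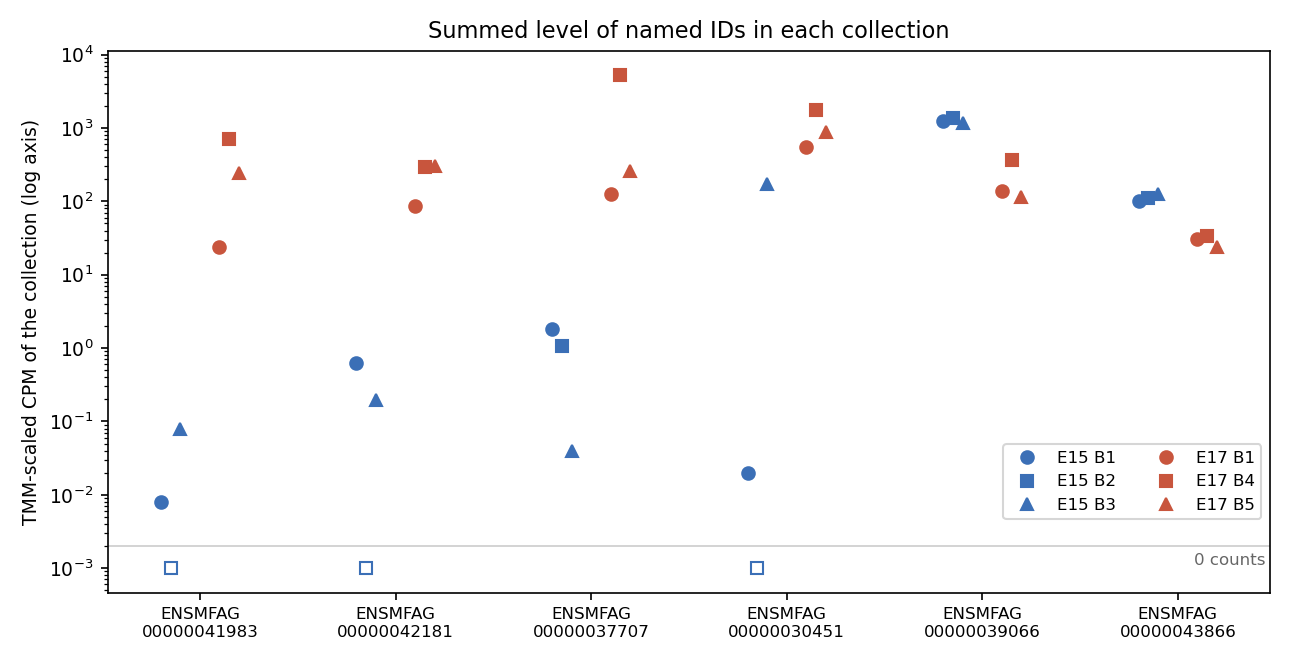
Summed level of 6 IDs in each collection, as TMM-scaled CPM on a log axis (TMM is edgeR's factor for differences in composition). Each point is 1 collection, blue for day 15 and red for day 17, and open points have 0 counts. The first 3 IDs lie below 2 CPM at day 15 and above 20 CPM at day 17, ENSMFAG00000030451 has 1 high day 15 collection, and the last 2 IDs are lower at day 17.

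Lower at day 17 were ENSMFAG00000039066 and ENSMFAG00000043866, named by the same rule and not past the threshold with edgeR. DESeq2 called both (adjusted p = 0.00572 and 0.0101). ENSMFAG00000039066 had 1237, 1353 and 1153 CPM in E15 B1, B2 and B3 and 140, 369 and 113 CPM in E17 B1, B4 and B5. The day means of 1247 ± 101 and 207 ± 140 CPM (SD, n = 3) were 6.02-fold apart, with a log2 difference of −2.59 ± 0.58 (SE, adjusted p = 1.00 with edgeR). It was broadly expressed: every kept cell of both days held at least 1 count, and 83 of 87 cells of E15 B1, 20 of 22 of E15 B2 and 8 of 12 of E15 B3 reached 100 CPM, as did 21 of 37 in E17 B1, 27 of 31 in E17 B4 and 19 of 71 in E17 B5. E17 B4 was thus above E15 B3, and the days overlapped on this measure. In E15 B3, 77.0% of its counts came from 1 cell, and the level there without that cell was 366 CPM by plain total counts. On that scale E17 B4 stood at 342 CPM, and at 303 CPM without its own cell with the most counts.

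ENSMFAG00000043866 had 102, 112 and 126 CPM at day 15 and 30.9, 33.3 and 24.2 CPM at day 17, in the order of the collections above. The 3 values of each day lay close together, although in E15 B2 and B3 the cell with the most counts held 35.8% and 64.0% of them, and the levels without it were 70.8 and 62.5 CPM. The log2 difference was −1.94 ± 0.50 (SE, adjusted p = 1.00 with edgeR). Its percent of positive cells at equal depth did not separate the days, which was 71.3%, 40.9% and 25% for day 15 collections and 48.6%, 35.5% and 53.5% at day 17. Cells at 100 CPM or more numbered 33, 7 and 2 in the day 15 collections and 3, 3 and 0 in those of day 17.

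The percent of positive cells was compared after each cell was thinned to 100000 counts, so that depth did not set it, with a positive cell defined by 1 or more counts. limma on the logit of the percent called 4 of 11740 IDs higher at day 17 (0.0341%) and 0 lower (0%). The smallest adjusted p among lower IDs was 0.870, and 339 IDs had an unadjusted p under 0.05, of which 300 were higher and 39 lower. Equal depth did not make the collections alike. Over the 13736 IDs tested for level, the median percent of positive cells was 27.6%, 9.09% and 8.33% in E15 B1, B2 and B3. In E17 B1, B4 and B5 it was 27.0%, 12.9% and 26.8%. The part of this background in the excess of higher IDs was not tested. Without E17 B1 limma called 1 of 11248 IDs (0.00889%), which was ENSMFAG00000037707. With positive cells taken at 100 CPM or more limma called 0 of 6127 IDs, with 239 at an unadjusted p under 0.05.

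ENSMFAG00000037707 was positive in 2.3%, 9.09% and 0% of the cells of E15 B1, B2 and B3. In E17 B1, B4 and B5 it was positive in 59.5%, 74.2% and 81.7%. All day 17 collections were far above all day 15 collections, with a log2 odds difference of 5.63 ± 1.11 (SE, adjusted p = 0.00215 with limma) and 6.05 ± 1.30 without E17 B1 (adjusted p = 0.0361 with limma). It was called in 8 of the 10 alternatives and lost without E17 B5 (adjusted p = 0.696 with limma) and at 100 CPM or more (0.0929 with limma). Its summed level was 1.81, 1.08 and 0.0395 CPM at day 15 and 124, 5219 and 258 CPM at day 17. That level did not pass (log2 difference 10.87 ± 2.08, SE, adjusted p = 0.660 with edgeR). It was called in 2 of its 13 alternatives, with DESeq2 not among the 13. In E17 B4, 1 cell held 48.9% of its counts, at 70295 CPM of that cell, and the level without it was 2559 CPM. At 100 CPM or more there were 8, 13 and 28 cells at day 17 and none at day 15.

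ENSMFAG00000030451 was positive in 0%, 0% and 50% of the cells at day 15 and in 81.1%, 45.2% and 85.9% at day 17, again in the order of the collections. E15 B3 was above E17 B4, so the days overlapped, although limma called the ID with a log2 odds difference of 5.75 ± 1.11 (SE, adjusted p = 0.00215 with limma). It was called in 4 of the 10 alternatives. The adjusted p with limma was 0.198 without E17 B1, 0.148 without E15 B1, 0.193 without E15 B2, 0.696 without E17 B5, 0.0548 at 5 or more counts and 0.725 at 100 CPM or more. In E15 B3, 1 cell held 4081 of the 4414 counts, and the 11 other cells had a median of 2 counts. The summed levels were 0.0198, 0 and 174 CPM at day 15 and 551, 1743 and 896 CPM at day 17, with a log2 difference of 4.20 ± 2.44 (SE, adjusted p = 1.00 with edgeR). Without E15 B3 the summed level was called (adjusted p = 0.0407 with edgeR), but E15 B1 and E15 B2 held only 5 and 0 counts. That fit thus leaves out nearly all the day 15 counts of the ID. With all counts, 11 of the 12 cells of E15 B3 were positive.

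The percent of positive cells of ENSMFAG00000042181, described above for its level, also rose. It was 1.15%, 0% and 0% at day 15 and 32.4%, 32.3% and 76.1% at day 17, a log2 odds difference of 5.19 ± 1.16 (SE, adjusted p = 0.0240 with limma). Without E17 B1 the difference was 5.63 ± 1.40 and did not pass (adjusted p = 0.209 with limma), and the ID was called in 3 of the 10 alternatives. The same measure for ENSMFAG00000041983 was 1.15%, 0% and 0% against 18.9%, 32.3% and 64.8%, and did not pass (adjusted p = 0.170 with limma), being called in 1 of the 10 alternatives, that with all counts of each cell.

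The last called ID, ENSMFAG00000011493, lay outside the naming rule and was chosen after its values were seen. It was positive in 4.60%, 0% and 0% of the cells at day 15 and in 81.1%, 25.8% and 54.9% at day 17 (log2 odds difference 5.06 ± 1.13, SE, adjusted p = 0.0240 with limma). It was called in 2 of its 9 alternatives, and without E17 B1 the adjusted p was 1.00 with limma. Few cells held it at a high level: 1, 1 and 2 cells of the day 17 collections reached 100 CPM. Its median cell held 31.8 CPM in E17 B1, 0 in E17 B4 and 9.29 CPM in E17 B5. With all counts of each cell in place of equal depth, 54.0%, 36.4% and 16.7% of the day 15 cells were positive too, against 97.3%, 45.2% and 83.1% at day 17, and the call was lost (adjusted p = 0.995 with limma).

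**Figure D2:**
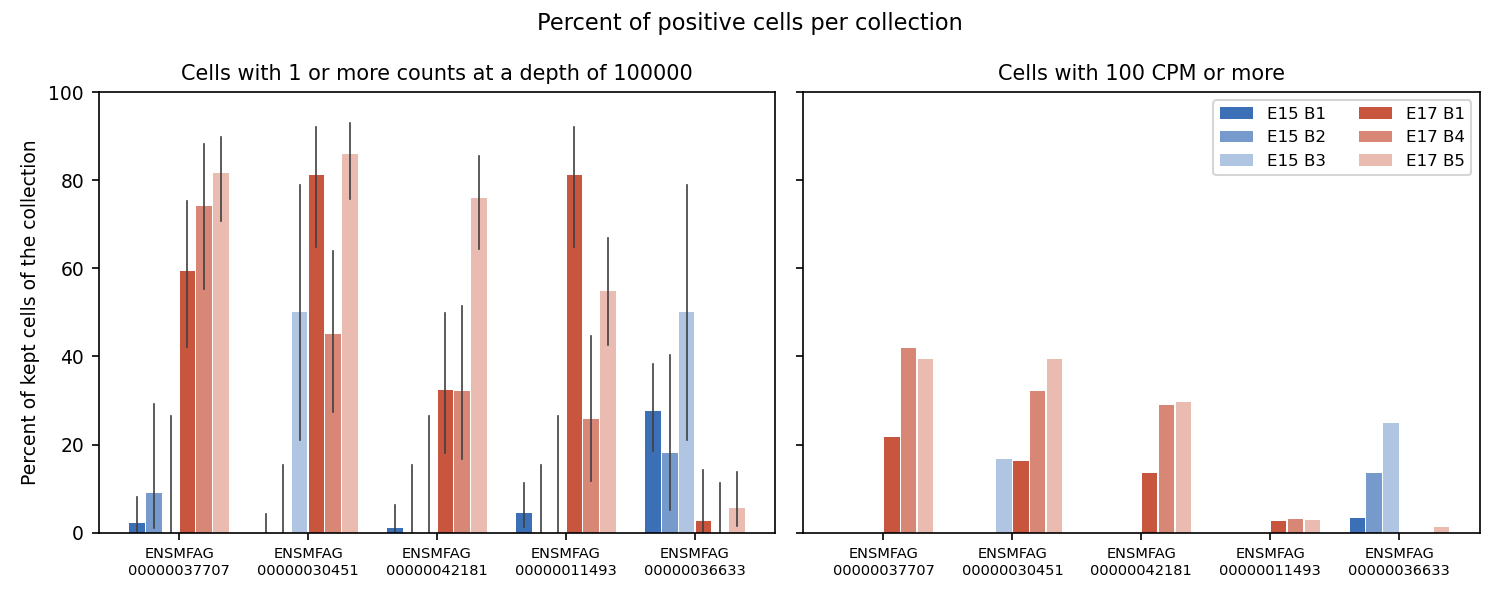
Percent of cells positive for 5 IDs in each collection, on the left for 1 or more counts at a depth of 100000 and on the right for 100 CPM or more. Lines on the left are exact 95% binomial intervals, which cover counting error only, and ENSMFAG00000011493 goes from 81.1% of the cells of E17 B1 on the left to 1 of 37 on the right.

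No lower ID passed in the percent of positive cells. ENSMFAG00000036633, 1 of the 2 named by rule, was positive in 27.6%, 18.2% and 50% of the cells at day 15 and in 2.70%, 0% and 5.63% at day 17. These values did not overlap, but the log2 odds difference of −3.69 ± 1.18 (SE) had an adjusted p of 0.870 with limma. Its level, called lower by DESeq2 (adjusted p = 0.0308) and not by edgeR, was 15.3, 22.5 and 210 CPM at day 15 and 0.917, 0 and 2.31 CPM at day 17. The other, ENSMFAG00000020302, was positive in 50.6%, 13.6% and 16.7% at day 15 and in 5.41%, 6.45% and 2.82% at day 17 (adjusted p = 0.994 with limma).

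A cell with 1 count of an ID and a cell with very many are both positive, and the day 17 collections held both kinds. With all counts used, 100% of the 71 cells of E17 B5 held ENSMFAG00000041983, and the median cell had 9.47 CPM, while 17 cells reached 100 CPM and the cell with the most counts was at 1705 CPM. In E17 B1, 62.2% of the cells held it with a median of 0.994 CPM, and in E17 B4 87.1% with 0.743 CPM. The same spread of low values beside a few high cells was seen for ENSMFAG00000030451, held by every cell of the 3 day 17 collections at medians of 11.1, 3.79 and 58.8 CPM. Low counts beside 1 high cell were seen for other IDs as well. In E17 B1, 12 IDs had at least 1000 counts in a cell and at least 90% of their counts in it, and a median of 88.9% of the other cells also held them. The like median was 23.3% over 7 IDs in E15 B1, 19.0% over 12 in E15 B2, 36.4% over 387 in E15 B3 and 10.0% over 719 in E17 B4, and E17 B5 had no such ID. The part of such low counts in the percent of positive cells was not tested.

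**Figure D3:**
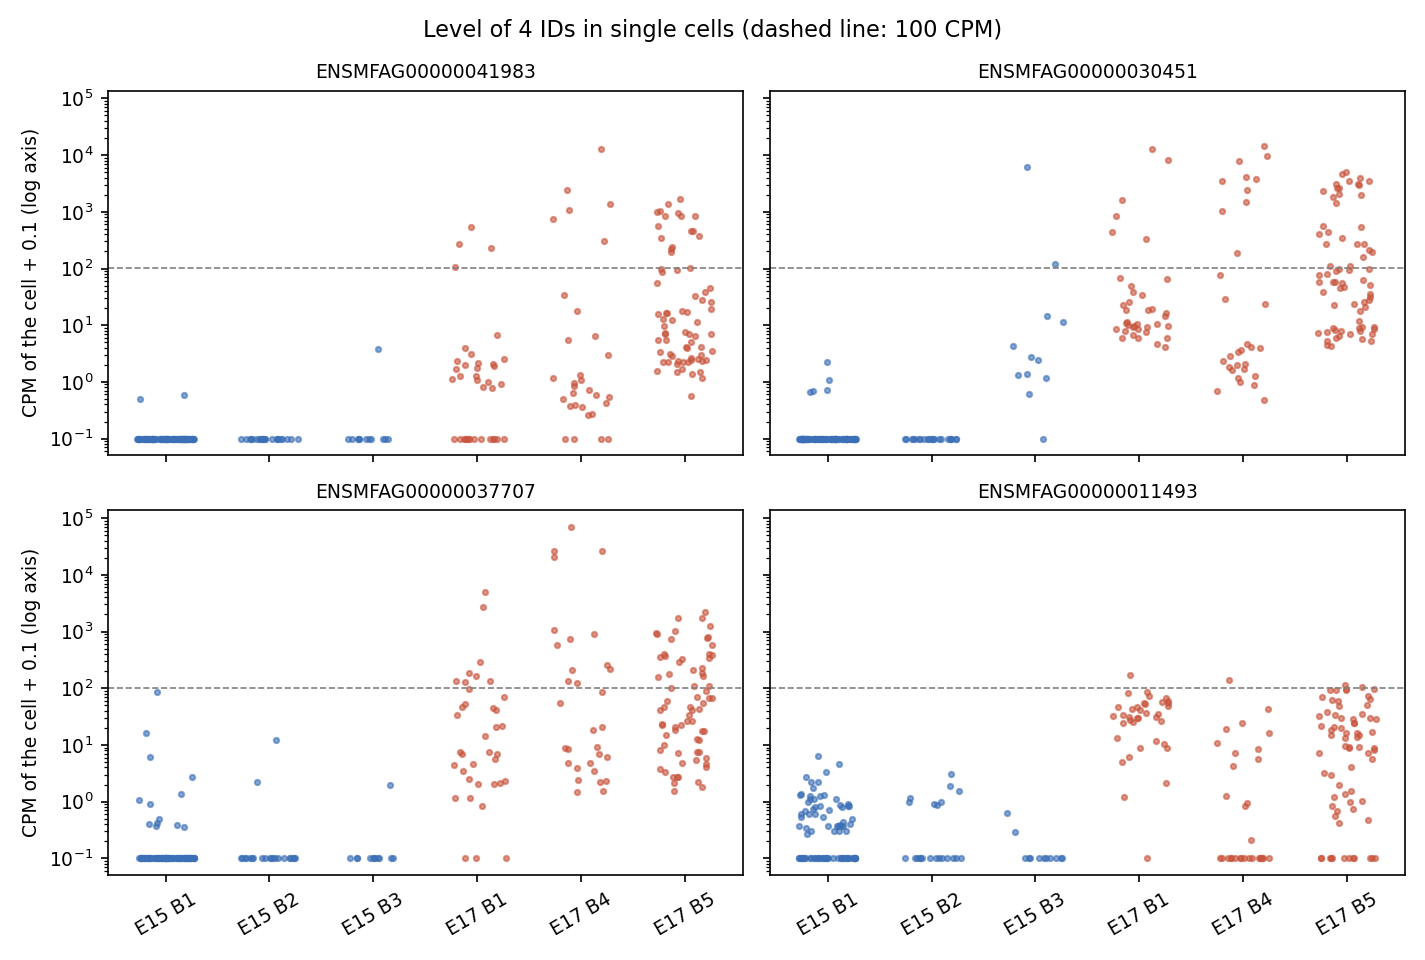
CPM of single cells, with 0.1 added, on a log axis for 4 IDs in each collection. Each point is 1 cell, the lowest row of points being cells with 0 counts, and the dashed line is at 100 CPM. For the first 3 IDs the day 17 cells spread from 0 or a few CPM to well over the line, with no clear break in E17 B5, and ENSMFAG00000011493 has few cells over the line.

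At 100 CPM or more, some of the IDs that were higher at day 17 shared cells, most completely in E17 B5. All 17 cells of E17 B5 with ENSMFAG00000041983 also had ENSMFAG00000042181 and ENSMFAG00000030451. In E17 B4, 5 of the 6 cells with it had ENSMFAG00000042181 and all 6 had ENSMFAG00000030451, and in E17 B1 3 of 4 had each. ENSMFAG00000038308, given because earlier results of these data had pointed to it, reached 100 CPM in 1, 4 and 16 cells of E17 B1, B4 and B5, each of which also had ENSMFAG00000030451. At day 15 the sharing did not hold. ENSMFAG00000038308 reached 896 CPM in 1 cell of E15 B1 and 186 CPM in 1 cell of E15 B2, where 0 cells had ENSMFAG00000030451 at 100 CPM. ENSMFAG00000037707 shared fewer: of its 8, 13 and 28 cells in the day 17 collections, 3, 6 and 21 had ENSMFAG00000030451. ENSMFAG00000001837, from the same earlier results, was at 100 CPM in 1, 1 and 8 cells of the day 17 collections, and none of them had ENSMFAG00000030451. ENSMFAG00000030451 itself reached 100 CPM in 6 of 37, 10 of 31 and 28 of 71 cells, so its absence from 1 cell says little. All these IDs were picked with these same data known, so the shared cells are a description and test nothing.

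Counting all 5 IDs that were higher at day 17 (ENSMFAG00000041983, ENSMFAG00000042181, ENSMFAG00000037707, ENSMFAG00000030451 and ENSMFAG00000011493), cells with at least 1 of them at 100 CPM or more made up 35.1% of E17 B1, 58.1% of E17 B4 and 53.5% of E17 B5. At day 15 they made up 0% of E15 B1 and E15 B2 and 16.7% of E15 B3 (2 of 12 cells). Cells with at least 2 of the 5 numbered 5 of the 13 with any in E17 B1, 10 of 18 in E17 B4 and 26 of 38 in E17 B5, so most such cells of E17 B1 had 1 ID alone. At least 4 of the 5 were found in 2, 3 and 12 cells of the day 17 collections. These cells were thus in every day 17 collection, and none of the day 15 cells had more than 1 of the 5. Since the IDs were picked for being higher at day 17, these counts describe the cells and test nothing.

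The other IDs of the earlier results did not pass in either test. ENSMFAG00000038308 had 3.11, 8.43 and 0.592 CPM at day 15 and 10.5, 46.0 and 147 CPM at day 17, without overlap (log2 difference 4.07 ± 1.28, SE, adjusted p = 1.00 with edgeR). ENSMFAG00000001837 had 2.86, 29.7 and 0 CPM against 2.08, 6.93 and 108 CPM, a difference that rests on E17 B5. ENSMFAG00000042357 had 35.9, 566 and 22.9 CPM against 404, 644 and 59.9 CPM, and ENSMFAG00000044238 2.36, 27.0 and 66.1 CPM against 63.0, 63.9 and 0.848 CPM, and both overlapped. ENSMFAG00000033907 had 80.7, 128 and 87.2 CPM against 262, 157 and 139 CPM, without overlap (log2 difference 0.91 ± 0.49, SE, adjusted p = 1.00 with edgeR). ENSMFAG00000000002 had 5236, 4434 and 5525 CPM against 701, 1596 and 3787 CPM, lower in all 3 day 17 collections (log2 difference −1.32 ± 0.65, SE, adjusted p = 1.00 with edgeR). ENSMFAG00000032300 did not pass the filter on low counts with all 6 collections, and without E17 B1 its adjusted p was 1.00 with edgeR (log2 difference 8.65 ± 3.57, SE).

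Whole collections were not separated by day beyond their spread, in a test too small to reach 0.05. The distance, 1 minus the Pearson correlation of log2(CPM + 1) across the 13736 IDs, averaged 0.220 between the days and 0.214 within them, a difference of 0.0061 (one-sided exact permutation test over 10 divisions of the collections, p = 0.4, where 0.1 is the smallest possible). Within day 15 the mean distance was 0.248 and within day 17 it was 0.180. The closest pair of all was E15 B1 and E17 B5, with a correlation of 0.899 across IDs, and the farthest was E15 B3 and E17 B4. These 2 closest collections were also the largest in cells, and IDs are not independent replicates.

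**Figure D4:**
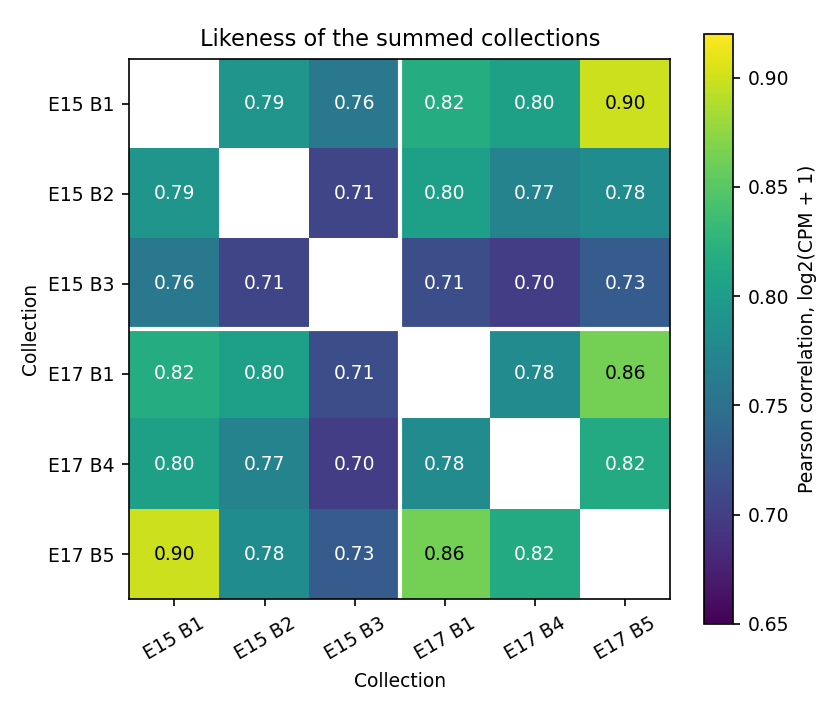
Pearson correlation of the summed log2(CPM + 1) of each pair of collections across 13736 IDs, with white lines between the days. The brightest square is between E15 B1 and E17 B5, and E15 B3 is the least like the others.

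Single cells had most of their nearest neighbours in their own collection for 4 of the 6 collections. Among the 15 nearest neighbours of a cell, taken over the 260 cells, 87.1% were from its own collection for E15 B1, 90.5% for E17 B1 and 82.1% for E17 B5, against 33.2%, 13.9% and 27.0% by cell numbers. In E15 B2 and E17 B4 the own share was 59.7% and 39.4%, against 8.11% and 11.6% by cell numbers. Neighbours of the other day were more common than those of other collections of the same day for E15 B1 (11.9% against 1.07%), E15 B2 (27.3% against 13.0%), E17 B4 (31.8% against 28.8%) and E17 B5 (15.6% against 2.35%). By cell numbers alone these would be 53.7% against 13.1%, 53.7% against 38.2%, 46.7% against 41.7% and 46.7% against 26.3%. The other day thus led by cell numbers as well. E17 B1 went the other way, with 1.26% from the other day and 8.29% from the same day, against 46.7% and 39.4% by cell numbers. E15 B3, with 12 cells, had 47.8% of its neighbours in the other day 15 collections and 41.7% at day 17, against 42.1% and 53.7% by cell numbers. Among the IDs tested, 112 (0.815%) had at least 90% of their CPM in 1 of the 6 collections, led by E15 B3 with 55 and E17 B4 with 25. The filter on low counts had kept only IDs above its cutoff in at least 3 collections. IDs found in 1 collection alone were thus removed beforehand, and the share does not tell how common they were.

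Over the other days of the series the IDs that were higher at day 17 did not follow culture time in 1 direction. ENSMFAG00000041983 had 909 and 1244 CPM in the 2 day 9 collections and 1410 in that of day 11, 0 in both of day 13, and after day 17 680 and 0 at day 19 and 5.42 and 129 at day 20, all scaled over the 15 collections together. ENSMFAG00000042181 had 2436, 1287 and 1121 CPM at days 9 and 11, 0.0219 and 0.332 at day 13, 747 and 6.81 at day 19 and 171 and 569 at day 20. Both were thus high at days 9 and 11, at or near 0 at days 13 and 15, and present again at day 17. ENSMFAG00000037707 was more uneven, with 2319 and 1.70 CPM in the 2 day 9 collections and 11859 CPM at day 11, and 72.8 and 0.484 CPM at day 13. ENSMFAG00000011493 had a different order, with less than 1 CPM at days 9 and 11 and 119 and 0.293 CPM at day 13. ENSMFAG00000030451 had 193 and 1.06 CPM at day 9, 1431 at day 11 and 5.55 and 0.0281 at day 13. At day 19 it had 5087 and 0 CPM, and at day 20 920 and 1196 CPM. Collections of the same day could differ from all to nothing, and these levels carry no test. Of the 15 collections, 14 held at least 10 kept cells, and the share of single cells in the levels of the other days is not given here.

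**Figure D5:**
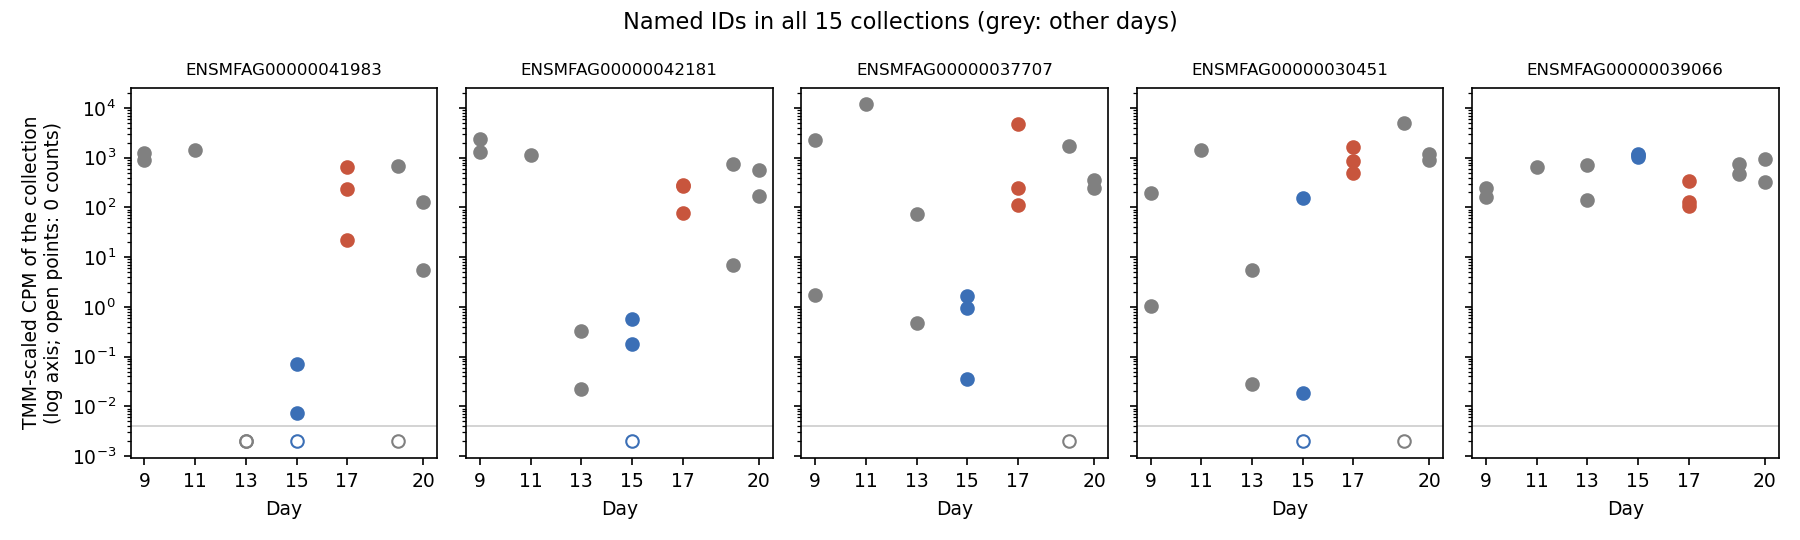
Level of 5 IDs in each of the 15 collections of the series by day, as CPM scaled over all 15 on a log axis, with day 15 in blue, day 17 in red and open points for 0 counts. ENSMFAG00000041983 and ENSMFAG00000042181 are high at days 9 and 11, low at days 13 and 15 and higher at day 17, and ENSMFAG00000039066 shows no such gap.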

How the data were processed

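The authors deposited a table of estimated counts per gene ID and cell, which were not normalized. STAR 2.3.4 and RSEM are named in the submitters' processing notes, and the genome build is not given in the sources used here. SMART-seq2 counts reads, without molecular identifiers. Of all values 2.23% were not whole (tolerance 1e-06), and counts were rounded. Kept cells were summed per collection and tested with edgeR 4.0.16 (quasi-likelihood, TMM factors, filterByExpr, Benjamini-Hochberg adjustment, R 4.3.3), with only the 6 collections in the fit. Alternatives were DESeq2 1.42.0, limma on mean log2 values, RLE factors, total counts, no filter, cells with at least 4000 detected IDs, thinned cells and each collection left out. Percent positive was tested with limma 3.58.1 on the logit, with 0.5 cells added, over IDs positive in at least 10% of a collection and at most 90% of a collection. Thinning used 1 random seed. No 2 kept cells had identical columns. Neighbours used the 2000 most variable IDs and 20 components.

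Named IDs were up to 2 in each direction per test: those past an adjusted p of 0.05 with a difference of 1 log2 unit or more and a log2 CPM averaging 3 or more (percent positive: 20 percentage points), filled by the smallest p among IDs whose days did not overlap. The members, the lists and the 8 IDs of earlier results were chosen with earlier results of these data known. Positive cells at 100 CPM and levels without the highest cell were added after seeing the data. The lineage marker lists were not run, since no ID could be paired with a name. The fits were also run on simulated data, and the share of planted differences that they found is not given here.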

Additional observations from a re-analysis of the deposited data

How the results depend on the processing

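No paired analysis was possible because the 2 days share only the B number 1 among their collections with counts. IDs called by summed level numbered 0 with edgeR and 14 with no filter, 1 with cells thinned, 65 with DESeq2, 1 with limma, and 0 to 1 with a collection left out (1 without E15 B3). IDs called by percent positive numbered 4, but 19 with all counts, 2 with at least 4000 detected IDs, 0 at 100 CPM, and 0 to 10 with a collection left out (1 without E15 B2 or E17 B1, 10 without E17 B4, 0 without E17 B5). IDs higher by 3 log2 units without overlap numbered 338 to 1512 with a collection left out, and lower ones 104 to 336. Some signs turned. The number of IDs that make up 50% of the counts became −0.333 with at least 4000 detected IDs. The total count difference was −382053 to 2091310 with a collection left out (negative without E17 B4), and the distance difference −0.0128 to 0.0418 (negative without E15 B3, E17 B1, E17 B4 or E17 B5). The log2 difference of ENSMFAG00000001837 was −1.27 (without E17 B5) to 4.75 and that of ENSMFAG00000044238 −0.12 (without E15 B1) to 1.59 with a collection left out. The cause was not tested. E15 B3, E15 B2 and E17 B4 had the fewest cells (12, 22 and 31), and there the cell with the most counts of an ID held a median of 78.2%, 51.9% and 48.2% of them.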
